A study of Sus scrofa with 9 samples.

Results

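The let-7 and miR-98 family was examined in small RNA libraries of pig (Sus scrofa) oocytes, embryos and sperm. Its members were the rows of the miRNA table whose name, without the species prefix, began with let-7 and an optional letter or with miR-98. The rule held 23 of the 1313 names in the table, on 26 of 1420 rows. When length and base variants of a miRNA (isomiRs) were summed, they gave 18 of 1082 miRNAs, of which 10 came from the 5p arm of the hairpin and 8 from the 3p arm. Names of the family without an arm were taken as 5p. Outside the family, names with and without an arm were kept apart, for example miR-92a and miR-92a-3p. The totals, ranks and percentages over all miRNAs count such names separately. The 10 members were let-7a, let-7b, let-7c, let-7d, let-7e, let-7f, let-7g, let-7i, let-7j and miR-98. Of the 23 names, 11 carried the pig prefix and 12 the prefix of another species, among them the only rows of let-7b (dog name), of let-7j (mouse name) and of the 3p miRNAs of let-7a, let-7b, let-7c, let-7e and miR-98.

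let-7 miRNAs share a seed, the stretch near the 5′ end that pairs with target mRNAs, and they repress mRNAs of growth and pluripotency genes such as HMGA2, RAS genes and LIN28. They are abundant in differentiated cells, and the RNA-binding protein LIN28 blocks the maturation of their precursors in undifferentiated ones. Each precursor is cut into a 5p and a 3p strand, and for most let-7 hairpins the 5p strand is the one loaded into Argonaute, while miR-98 is a family member with the same seed.

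The groups were oocytes that had been matured in vitro up to the second meiotic metaphase (MII oocytes), 1-cell embryos with pronuclei after in vitro fertilization (PN embryos) and purified mature sperm, with 3 libraries each and none of them treated; the first 2 groups are also called oocytes and embryos here. Following the study's methods, ovaries came from postpubertal gilts, named as Long White pigs, at a slaughterhouse. Cumulus cells were removed with hyaluronidase, and RNA was taken from large pools of oocytes or embryos. The sequenced sperm came from adult Large White boars, while the semen for fertilization came from Landrace boars. Breed as named and age of the animals thus differ between the groups and cannot be told apart from group. No label named separate donors or pools, so p-values measure the spread between libraries, which may be technical. In these bulk samples, fewer cells of a type and less RNA per cell cannot be told apart.

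The MII oocyte libraries held 289183 to 381674 counts, those of PN embryos 422630 to 771001 and those of sperm 1640492 to 2455102. These ranges did not overlap, so depth and group cannot be told apart. Of the cell type markers, the 4 sperm miRNAs (miR-34b, miR-34c, miR-449a and miR-449b) summed to between 151499 and 153743 counts per 1000000 counts of the library (CPM) in sperm and to between 2036 and 2455 CPM in the other 6 libraries. Of the 7 miRNAs of the early embryo and oocyte list, only 3 (miR-371, miR-302b and miR-302d) were listed in any library, and these were at 0 in sperm. In MII oocytes only miR-371 was above 0, while PN embryos also had miR-302b (mean 20.3 CPM) and miR-302d (3.36 CPM). The 5 granulosa and cumulus miRNAs summed to between 851 and 1360 CPM in oocytes, 1074 and 1172 CPM in embryos and 703 and 772 CPM in sperm. Most of the sperm sum was miR-383, with means of 93.1 CPM in oocytes, 118 CPM in embryos and 686 CPM in sperm. Each of the others on this list was lowest in sperm, miR-202 for example with means of 919, 862 and 15.1 CPM. The 6 blood miRNAs summed to at most 314 CPM in oocytes and 380 CPM in sperm but to between 837 and 875 CPM in embryos. Most of the embryo sum was miR-451, with means of 102, 509 and 73.4 CPM in oocytes, embryos and sperm, and miR-144, with 24.3, 154 and 5.97 CPM. miR-486 and miR-223 were also highest in embryos, by less. miR-142 was highest in sperm (33.2, 34.3 and 92.1 CPM), and miR-150 was at 0 in embryos. The 5 epithelial miRNAs summed to between 6391 and 6905 CPM in sperm against at most 1690 CPM elsewhere. Among the epithelial miRNAs, miR-141 alone was lowest in sperm, with means of 94.8 CPM in oocytes, 73.6 CPM in embryos and 33.1 CPM in sperm. The part of these cell types in the let-7 values below was not tested.

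The family made up a larger share of the miRNA counts in sperm than in oocytes or embryos. In MII oocytes it took 3.56%, 3.29% and 2.41% of the counts of libraries 1, 2 and 3, with a mean of 3.09% ± 0.60 (SD, n = 3). In PN embryos it took 3.57%, 3.70% and 3.58% (3.61% ± 0.071, n = 3). In sperm it took 14.3%, 14.4% and 14.4% (14.4% ± 0.085, n = 3), so every sperm library lay above every other library. The mean share in sperm was 4.65 times that in MII oocytes and 3.97 times that in PN embryos. The mean share in PN embryos was 1.17 times that in MII oocytes, and 1.06 times without MII oocyte library 3, the library with the smallest share. All these are shares of what each library listed, and a single miRNA, miR-205, was abundant in oocytes and embryos. With the rows of miR-205 left out of the totals, the family took 5.85% ± 0.96 in MII oocytes, 6.62% ± 0.11 in PN embryos and 14.4% ± 0.085 in sperm, and the ratios were 2.46 for sperm over MII oocytes and 2.17 for sperm over PN embryos. The plot of family shares gives both scales.

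**Figure D1:**
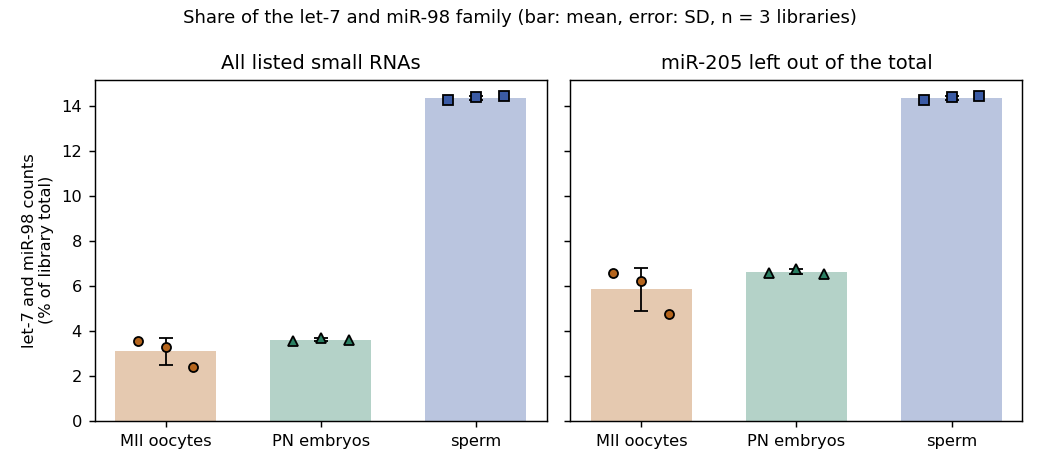
Share of all let-7 and miR-98 counts in each library, as a percentage of the library total (left) and of the total without miR-205 (right). Points are libraries, bars are means and error bars are SD over 3 libraries. Sperm lies near 14.4% in both panels, while MII oocytes rise from 3.09% to 5.85% and PN embryos from 3.61% to 6.62% when miR-205 is left out.

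let-7a, the most abundant member, led the family in all 3 groups. Its 5p miRNA stood at 15135, 13809 and 9776 CPM in the oocyte libraries, at 16452, 17062 and 16510 CPM in the embryo libraries and at 47115, 49088 and 49203 CPM in the sperm libraries. Sperm was highest without overlap, and the lowest value was that of MII oocyte library 3. By mean CPM let-7a ranked 10 of 1082 miRNAs in MII oocytes, 7 in PN embryos and 5 in sperm. All 9 values of the pig name were not whole, the form that divided multi-mapping reads would take. The split between let-7a and its near-identical relatives is therefore uncertain. Of the 9 values of other pig names, 9 were not whole for let-7c, 8 for let-7e and 6 for let-7f-5p. The remaining pig 5p names had at most 4. The levels of let-7c, let-7e and let-7f carry the same limit.

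let-7i, a member with a single precursor in the annotation used here, differed most between sperm and the other groups among the abundant members. It stood at 2555, 2526 and 2466 CPM in oocytes, at 2534, 2510 and 2409 CPM in embryos and at 39414, 36960 and 37150 CPM in sperm. The MII oocyte and PN embryo values overlapped, and the sperm mean was 15.0 times that of MII oocytes and 15.2 times that of PN embryos. let-7i ranked 39 of the 1082 miRNAs in MII oocytes, 42 in PN embryos and 6 in sperm.

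let-7f and let-7g followed let-7a in oocytes and embryos. let-7f-5p stood at 7837, 7325 and 4080 CPM in oocytes, at 6779, 6747 and 6578 CPM in embryos and at 14203, 16501 and 16287 CPM in sperm. let-7g-5p stood at 4745, 4418 and 3396 CPM in oocytes, at 4479, 4679 and 4543 CPM in embryos and at 25213, 24948 and 25076 CPM in sperm. For both, MII oocyte and PN embryo libraries overlapped and sperm lay above them, and MII oocyte library 3 was again the lowest.

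let-7b-5p did not show the low value of MII oocyte library 3, with 1871, 1902 and 1802 CPM in oocytes, 2080, 2356 and 2161 CPM in embryos and 9040, 8852 and 8910 CPM in sperm. let-7c-5p stood at 527, 494 and 438 CPM in oocytes, at 513, 631 and 577 CPM in embryos and at 1383, 1389 and 1390 CPM in sperm. let-7d-5p stood at 773, 622 and 619 CPM in oocytes, at 1077, 1164 and 1082 CPM in embryos and at 2407, 2448 and 2431 CPM in sperm. The 3 groups of let-7d-5p and of let-7b-5p did not overlap, in the order MII oocytes, PN embryos, sperm, whereas those of let-7c-5p overlapped between MII oocytes and PN embryos.

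let-7e was the exception among the 5p miRNAs, being lowest in sperm. It stood at 1021, 776 and 669 CPM in oocytes, at 900, 842 and 932 CPM in embryos and at 521, 491 and 536 CPM in sperm. Every sperm library lay below every oocyte and embryo library. Of its 9 values 8 were not whole, so its split from let-7a and other relatives is uncertain. It ranked 82 in MII oocytes, 85 in PN embryos and 114 in sperm.

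miR-98, at the lower end of the family, stood at 320, 177 and 219 CPM in oocytes, at 203, 241 and 227 CPM in embryos and at 336, 404 and 384 CPM in sperm. The highest MII oocyte library came close to the lowest sperm library without reaching it. let-7j, listed by 1 variant of a mouse name, stood at 0, 23.4 and 27.7 CPM in oocytes, at 33.1, 37.4 and 57.1 CPM in embryos and at 1351, 929 and 1001 CPM in sperm. Its MII oocyte values rest on 0, 7 and 8 counts, so its ratio between groups is imprecise. The annotation used here held no gene named for let-7j. Which locus gave these reads, and whether they are a base variant of another member, was not tested. It is counted as a member of its own by its name alone.

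**Figure D2:**
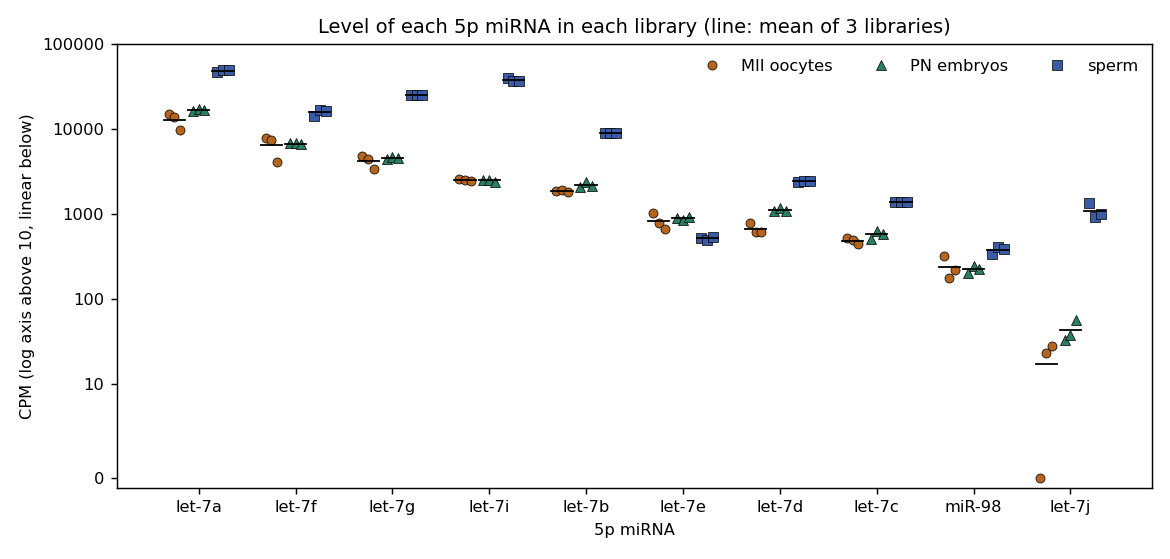
Level of each of the 10 5p miRNAs in CPM (log axis above 10, linear below), with 1 point per library and a line at the mean of 3 libraries. Sperm (squares) is above the other groups for 9 miRNAs and below them for let-7e (over all 485 tested miRNAs, 42.5% lay above MII oocytes without overlap and 38.6% below, and 43.1% lay above PN embryos and 47.2% below), and 1 MII oocyte library is at 0 for let-7j.

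The order of the members by mean CPM in oocytes was let-7a, let-7f, let-7g, let-7i, let-7b, let-7e, let-7d, let-7c, miR-98 and let-7j, in which let-7f overlapped with let-7g, and let-7e with let-7d. In PN embryos let-7d stood before let-7e, and no neighbours overlapped. In sperm the order was let-7a, let-7i, let-7g, let-7f, let-7b, let-7d, let-7c, let-7j, let-7e and miR-98, again without overlap between neighbours. Mature miRNAs are of like length, so their CPM were set side by side without a length correction.

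The make-up of the family, which does not depend on the rest of the library, differed between sperm and the other groups. let-7i was 8.37% ± 1.64 of family counts in MII oocytes, 6.87% ± 0.20 in PN embryos and 26.4% ± 1.11 in sperm (SD, n = 3). let-7a was 41.7% ± 1.00, 46.1% ± 0.030 and 33.8% ± 0.62. let-7f was 20.4% ± 3.01, 18.5% ± 0.40 and 10.9% ± 0.83. These shares sum to a whole within each library, so a larger share of one member goes with smaller shares of others. let-7g had a larger share in sperm, with 13.6% ± 0.42, 12.6% ± 0.077 and 17.5% ± 0.18, and let-7b had 6.17% ± 1.16, 6.08% ± 0.27 and 6.23% ± 0.10. let-7e made up 2.67% ± 0.27 of the family in MII oocytes, 2.47% ± 0.17 in PN embryos and 0.36% ± 0.016 in sperm.

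**Figure D3:**
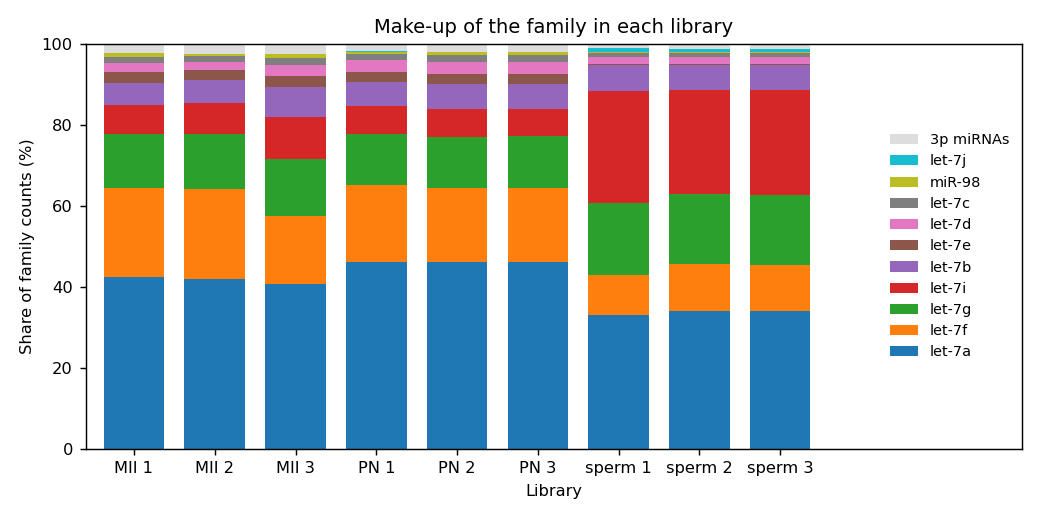
Share of family counts (%) taken by each 5p miRNA and by all 3p miRNAs together, with 1 stacked bar for each of the 9 libraries. let-7i averages 26.4% of the sperm bars and 8.37% of the MII oocyte bars, and let-7e is thin in sperm at 0.36%.

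Ratios between members within a library do not depend on the scaling, but they do depend on how shared reads were divided. let-7i counts per let-7a count were 0.169, 0.183 and 0.252 in MII oocytes, 0.154, 0.147 and 0.146 in PN embryos and 0.837, 0.753 and 0.755 in sperm. let-7e counts per let-7a count were 0.0675, 0.0562 and 0.0684 in MII oocytes, 0.0547, 0.0494 and 0.0565 in PN embryos and 0.01106, 0.01001 and 0.01088 in sperm. For both ratios sperm lay outside the range of the other 6 libraries, and with 3 libraries against 3 an exact permutation test could not go below p = 0.1, so none is given.

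Fold changes and tests came from edgeR's quasi-likelihood test on all tested miRNAs, with Benjamini-Hochberg adjustment (q) and scaling by trimmed means (TMM). A miRNA was called where q was under 0.05 and the absolute log2 fold change at least 1. Of the 18 family miRNAs, 15 passed the filter on low counts and entered the test, and let-7c-3p, let-7e-3p and miR-98-3p did not. All 10 5p miRNAs were tested.

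Between sperm and MII oocytes, 8 of the 10 5p miRNAs were called higher in sperm and 0 lower. Of the 3p miRNAs, let-7a-3p, let-7f-3p and let-7i-3p were called higher, which makes 11 of 15 tested, but let-7f-3p and let-7i-3p passed the filter through sperm and could only be called higher. Over all 485 miRNAs tested, 40.6% were called higher and 42.1% lower in sperm, so a call in this comparison was common. let-7i-5p had a log2 fold change of 4.13 ± 0.048 (SE; q = 6.67e-13). let-7g-5p (2.80 ± 0.10, q = 1.62e-09), let-7b-5p (2.48 ± 0.065, q = 1.58e-10), let-7a-5p (2.13 ± 0.13, q = 1.02e-07) and let-7d-5p (2.07 ± 0.090, q = 7.66e-09) were also called. let-7c-5p (1.72 ± 0.099, q = 6.49e-08) and let-7f-5p (1.51 ± 0.20, q = 4.71e-05) had the smallest values among the called 5p miRNAs. let-7j-5p had the largest value of the 5p miRNAs with 6.33 ± 0.40 (q = 1.45e-07), against MII oocyte counts of at most 8. miR-98-5p was below the size threshold at 0.86 ± 0.19 (q = 0.00185) and past it, at 1.14, without MII oocyte library 1. The count of 11 was the same without MII oocyte library 3. let-7e-5p had a negative value of -0.46 ± 0.13 (q = 0.00768), also below it. The median log2 fold change of the 10 5p miRNAs was 2.10, beside -0.04 over all tested miRNAs. The median of all tested miRNAs depended on the filter and scaling. It was -0.25 with library totals in place of TMM (5p miRNAs 1.88), -0.44 without miR-205 (5p 2.11), 0.78 with a minimum of 10 counts in 3 libraries (5p 2.11) and 0.59 with only these 2 groups in the fit (5p 1.96).

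The comparison of sperm with PN embryos shares its sperm libraries with the comparison above. It called 9 of the 10 5p miRNAs higher in sperm and 0 lower, where 39.4% of all tested miRNAs were called higher and 43.5% lower. With the 3p miRNAs this made 13 of 15 tested, again with let-7f-3p and let-7i-3p among them. let-7i-5p had a log2 fold change of 4.21 ± 0.048 (q = 5.94e-13), let-7g-5p of 2.74 ± 0.099 (q = 1.63e-09), let-7b-5p of 2.31 ± 0.063 (q = 1.93e-10) and let-7a-5p of 1.83 ± 0.13 (q = 3.04e-07). let-7d-5p, at 1.42 ± 0.083 (q = 7.44e-08), let-7c-5p, at 1.55 ± 0.092 (q = 8.10e-08), and let-7f-5p, at 1.51 ± 0.20 (q = 3.99e-05), were in the lower range of the calls. The calls of miR-98-5p, at 1.02 ± 0.18 (q = 3.85e-04), and of let-7d-3p, at 1.06 ± 0.12 (q = 1.61e-05), lay at the size threshold, and each held in 8 of 18 alternatives. let-7e-5p was at -0.50 ± 0.13 (q = 0.00349), short of the size threshold. The median of the 10 5p miRNAs was 1.69, beside -0.19 over all tested miRNAs. The latter was -0.48 with library totals in place of TMM (5p miRNAs 1.40), -0.75 without miR-205 (5p 1.70) and 0.63 with a minimum of 10 counts in 3 libraries (5p 1.71).

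Between PN embryos and MII oocytes, 0 of the 15 tested family miRNAs were called by edgeR, where 5.77% of all tested miRNAs were called higher and 2.06% lower in PN embryos. Of the 15, let-7i-3p was at 0 in both groups and could not be called, and let-7f-3p rested on 6.5 counts in 1 PN embryo library. The 485 tested include other miRNAs at 0 in both groups, which lowers these percentages. With only these 2 groups in the fit, 336 were tested. DESeq2's Wald test also called 0, and 4 of the 15 had an unadjusted p under 0.05 (let-7a-5p, let-7b-5p, let-7d-5p and let-7j-5p), beside 158 of the 485. These 4 were also the ones among the 10 5p miRNAs whose libraries did not overlap, all of them higher in PN embryos, beside 21.9% of all tested miRNAs higher without overlap and 14.6% lower. With q under 0.05 alone, a rule that took 11.3% of all tested miRNAs as higher and 9.07% as lower, let-7d-5p was the only one of the 15, with a log2 fold change of 0.65 ± 0.092 (q = 9.32e-04). Over the 18 alternatives this value stayed between 0.61 and 0.76, with q of at most 0.0102. let-7a-5p was at 0.30 ± 0.12 (q = 0.122) and at 0.16 without MII oocyte library 3, let-7b-5p was at 0.18 ± 0.064 (q = 0.0885) and let-7j-5p at 1.42 ± 0.63 (q = 0.152). let-7i-5p was at -0.09 ± 0.045 (q = 0.229), which does not show that its levels were equal.

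let-7d stood apart within the family by the balance of its arms. let-7d-3p stood at 647, 685 and 526 CPM in oocytes, at 535, 581 and 586 CPM in embryos and at 879, 988 and 1051 CPM in sperm. Of the counts of both arms, the 3p arm took 45.6%, 52.4% and 45.9% in MII oocytes, 33.2%, 33.3% and 35.1% in PN embryos and 26.8%, 28.8% and 30.2% in sperm. The 3 groups did not overlap, and the means were 48.0% ± 3.86, 33.9% ± 1.10 and 28.6% ± 1.73 (SD, n = 3). The 2 arms come from the same hairpin, and the ratio is free of library scaling. Between PN embryos and MII oocytes the log2 fold change was 0.65 for let-7d-5p and -0.19 ± 0.13 (q = 0.378) for let-7d-3p; the difference between the arms was not tested in the fit, and an exact permutation test of 3 libraries against 3 could not go below p = 0.1.

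**Figure D4:**
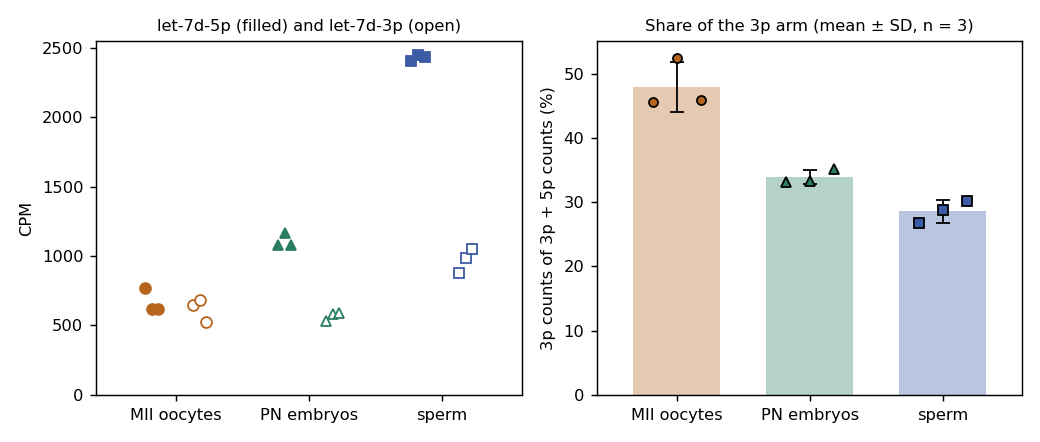
Levels of let-7d-5p (filled) and let-7d-3p (open) in CPM in each library (left), and the 3p counts as a percentage of both arms (right; points are libraries, bars are means, error bars are SD over 3 libraries). The mean 3p share is 48.0% in MII oocytes, 33.9% in PN embryos and 28.6% in sperm.

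The 3p miRNAs together made up 2.41% of family counts in MII oocytes, 1.87% in PN embryos and 1.20% in sperm, most of them let-7d-3p. let-7a-3p stood at 126, 70.2 and 45.0 CPM in oocytes, at 40.2, 59.7 and 66.1 CPM in embryos and at 592, 678 and 664 CPM in sperm. It was called higher in sperm than in MII oocytes (log2 fold change 3.17 ± 0.26, q = 1.28e-06) and PN embryos (3.78 ± 0.25, q = 2.10e-07). let-7b-3p stood at 34.1, 50.1 and 24.2 CPM in oocytes, at 45.0, 36.0 and 24.6 CPM in embryos and at 42.1, 50.2 and 49.3 CPM in sperm. The libraries of let-7b-3p overlapped between groups, and its log2 fold change between sperm and MII oocytes was 0.61 ± 0.33 (q = 0.107). Between sperm and PN embryos it was 0.74 ± 0.30 (q = 0.0403), past q but not the size threshold; a difference between the arms of let-7b was not tested.

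let-7i-3p was listed at 0 in all oocyte and embryo libraries and at 26.2, 19.0 and 23.2 CPM in sperm, on 43, 33 and 57 counts. Few of the listed values lay below 5 counts (166 of 5422 values above 0), so a listed 0 was bounded by 5 counts in each library. By this bound it was at least 1.45-fold higher in sperm than in MII oocytes and at least 2.68-fold higher than in PN embryos. let-7f-3p was listed at 0 in MII oocytes, at 9.35 CPM in PN embryo library 2 alone and at 24.7, 34.0 and 24.0 CPM in sperm, which is at least 1.76-fold higher than in MII oocytes by the same bound. Its call between sperm and PN embryos was lost without sperm library 2 (edgeR, q = 0.0534; over its 17 alternatives q lay between 6.89e-04 and 0.0534). The call of let-7i-3p in both comparisons, and that of let-7f-3p between sperm and MII oocytes, rest on these low counts. let-7e-3p had 15.7, 0 and 0 CPM in oocytes, 14.2, 0 and 18.2 CPM in embryos and 3.05, 2.88 and 5.70 CPM in sperm. The 2 remaining miRNAs, let-7c-3p and miR-98-3p, had group means under 10 CPM, the first with 6 counts in 1 PN embryo library and the second in sperm alone with a mean of 9.14 CPM.

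Most family miRNAs rested on a single name. let-7a-3p held 2 variants, of which the rabbit name ocu-let-7a-3p_1ss22CT took 87.2% of its counts in MII oocytes, 86.7% in PN embryos and 78.8% in sperm, and the goat name chi-let-7a-3p_R-1_1ss9TC took the remainder. let-7f-3p held 2 names in sperm, ocu-let-7f-2-3p_1ss22CT with 75.2% and the pig name with 24.8%. By name, 12 of 23 were listed in all 9 libraries, beside 17.5% of the 1313 names, and 5 in all sperm but 0 MII oocyte libraries, beside 21.6% of the 1313 names; the sperm libraries were the deeper ones. A gorilla-named let-7a with 1 added base was one of these 5, with 222 CPM ± 5.0 in sperm, at least 14.1-fold higher than in MII oocytes against 5 counts a library, though it was only 0.457% of let-7a-5p there. Tested by name, 13 of the 17 tested names were called higher in sperm than in MII oocytes and 0 lower (42.2% and 40.7% of all 587 names), and 13 higher and 0 lower than in PN embryos (38.8% and 47.4% of all names); ggo-let-7a_L+1 and the names of let-7f-3p and let-7i-3p among them were at 0 in MII oocytes and could only be called higher there. Between PN embryos and MII oocytes edgeR called 0 names of the family (11.2% of all names higher and 1.70% lower), with 4 at an unadjusted p under 0.05, and DESeq2's Wald test called 2 (ggo-let-7a_L+1 and mmu-let-7j_1ss8TG, both higher in PN embryos).

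Several let-7 genes lie beside genes of the miR-99/100 and miR-125 families and can be transcribed together with them. In the Sscrofa11.1 assembly, RefSeq places MIR125A (chr6:58331566-58331645), MIRLET7E (chr6:58332042-58332121) and MIR99B (chr6:58332211-58332280) within 1 cluster. All 3 of its 5p miRNAs had negative log2 fold changes between sperm and MII oocytes. The let-7e value carries the uncertain split of reads given above. miR-125a was at -0.28 ± 0.086 (q = 0.0122), let-7e-5p at -0.46 ± 0.13 and miR-99b at -0.64 ± 0.10 (q = 1.80e-04), so each passed q but not the size threshold. Against PN embryos miR-99b was called lower in sperm, at -1.09 ± 0.097 (q = 2.25e-06).

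On chromosome 13, MIR99A (chr13:181302483-181302562) lies 646 bases from MIRLET7C (chr13:181303209-181303302). Both miRNAs were called higher in sperm than in MII oocytes, miR-99a-5p by 2.42 ± 0.057 (q = 7.31e-11) and let-7c-5p by 1.72. miR-99a-5p ranged from 3634 to 3990 CPM in oocytes, from 4510 to 4905 CPM in embryos and from 17232 to 17715 CPM in sperm, without overlap. Its level was above that of let-7c-5p in every group.

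On chromosome 9, MIRLET7A-1 (chr9:49152586-49152665) lies between MIR125B-1 (chr9:49109435-49109514) and MIR100 (chr9:49157909-49157988), and the mature miRNAs of these names differed in sign. The table also lists a 3p miRNA named for a MIR125B-2 gene, so miR-125b reads, like those of let-7a, cannot be assigned to the chromosome 9 gene alone. miR-125b was at -0.75 ± 0.046 (q = 1.11e-07), below the size threshold, and miR-100 at 1.15 ± 0.068 (q = 8.12e-08). miR-125b went from 19414 CPM ± 641 in MII oocytes to 9905 CPM ± 81.8 in sperm (SD, n = 3), while let-7a-5p was 2.13 higher on the log2 scale. let-7a is also encoded by MIRLET7A-2 (chr3:43465667-43465758), next to MIRLET7F-2 (chr3:43466034-43466130) and MIRLET7D (chr3:43468501-43468596), and mature reads cannot be assigned to either copy.

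MIRLET7I (chr5:27252802-27252886) and MIRLET7G (chr13:34406140-34406219, inside the gene WDR82) lie in no such cluster in this annotation, and they had the 2 highest log2 fold changes between sperm and MII oocytes among the 5p miRNAs above 100 CPM in each group. MIR98 (chrX:46302381-46302460) and MIRLET7F-1 (chrX:46303245-46303327) lie together inside HUWE1, a ubiquitin ligase gene, and let-7f also has the copy on chromosome 3. The plot by locus sets these values beside each other.

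**Figure D5:**
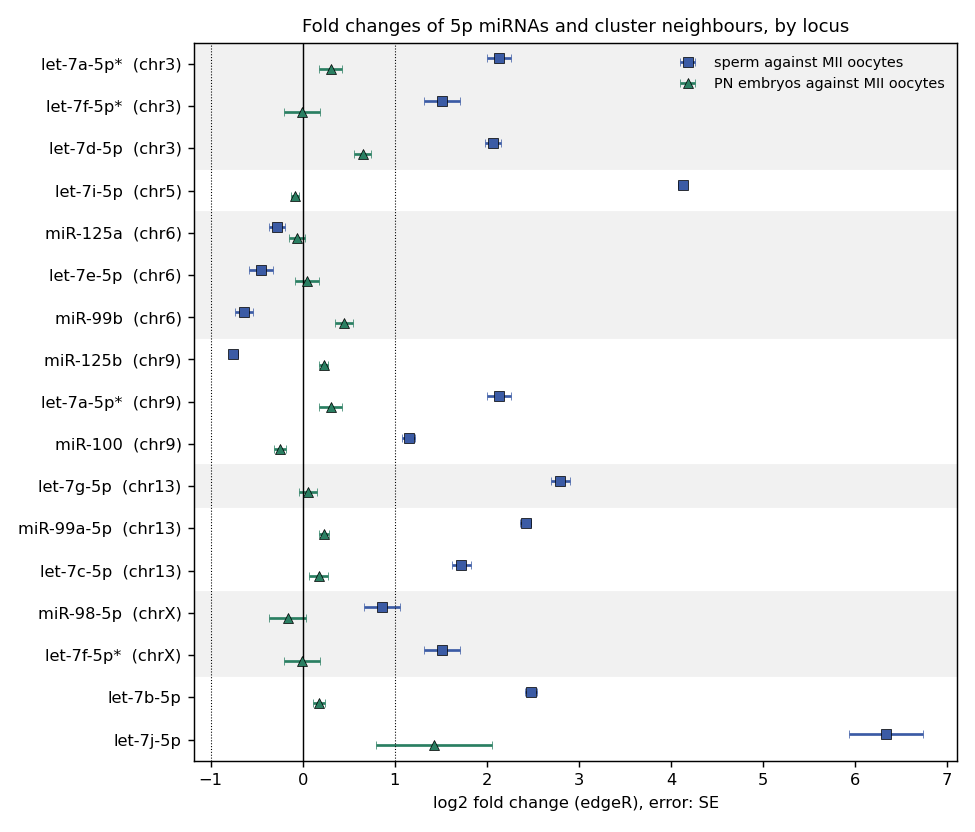
log2 fold changes (edgeR; error bars are SE) of 5p miRNAs and of their cluster neighbours, for sperm against MII oocytes (squares) and PN embryos against MII oocytes (triangles), with 1 shaded or white band per locus. Asterisks mark let-7a and let-7f, which are drawn at both of their loci; dotted lines mark an absolute value of 1. The miRNAs of the chromosome 6 cluster lie left of 0 in sperm, at -0.28, -0.46 and -0.64, and let-7i lies at 4.13.

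The 3 miRNAs outside the family whose pattern over the groups was most like that of the family sum were miR-99a-5p, miR-92a and miR-92b-3p, out of 226 with a mean of at least 100 CPM. The measure was the distance between group means of log2(CPM + 1), taken as differences from MII oocytes, over 3 groups of 3 libraries. The distances were 0.0649, 0.0980 and 0.173. miR-92a, a product of the miR-17/92 family of clusters, averaged 6478 CPM ± 84.9 in oocytes and 7325 CPM ± 123 in embryos, against 32031 CPM ± 800 for sperm (SD, n = 3). These levels cover only the name without an arm. The name miR-92a-3p was counted apart, with a log2 fold change of 2.56 ± 0.069 (edgeR, q = 1.84e-10) between sperm and MII oocytes.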

How the data were processed

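Small RNA of 3 MII oocyte, 3 PN embryo and 3 sperm libraries was analysed. The deposited values were estimated counts per listed small RNA, which the authors marked as raw; multi-mapping reads appeared divided, since many values were not whole (tolerance 0.005). The submitters' processing notes named the Sscrofa11.1 build; aligner and caller were not given in the sources used here. The meaning of the variant suffixes was not stated. Columns were matched to samples by library name.

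Rows of the same name were summed and values rounded for testing. CPM used library totals. Group comparisons used edgeR 4.0.16 (glmQLFit, R 4.3.3) with all 9 libraries in 1 fit, TMM and filterByExpr (minimum count 10), at 2 levels, isomiRs summed (485 tested) and names (587 tested). DESeq2 1.42.0 was an alternative. On simulated data for PN embryos against MII oocytes (465 miRNAs tested), 76.8% of log2 changes of 1 and 100% of log2 changes of 2 were recovered. Recovered meant q under 0.05 in the right direction, without the size threshold, and 2.19% of unchanged miRNAs also had q under 0.05. The simulated levels were means over all 9 libraries, sperm included, with a fixed spread. These percentages therefore do not show how many such changes would be called between PN embryos and MII oocytes. Replicates differed beyond counting noise (chi-square per degree of freedom of 2.20 or more), so none was merged. The members, marker lists and tests were chosen with earlier results of these data known. Members with at least 10 CPM in a group were described singly, variants with at least 5% of their miRNA were named, and from outside the family only cluster neighbours and the 3 most alike miRNAs; let-7c-3p, miR-98-3p and the gorilla-named let-7a were named after their values were seen. Loci came from RefSeq.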

Additional observations from a re-analysis of the deposited data

How the results depend on the processing

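Every comparison was repeated with other scalings, filters, thresholds, DESeq2, the 2 compared groups alone, identical rows counted once, miR-205 left out, a replicate block and each library left out. Among 40 pairs of a miRNA and a comparison, 30 kept direction and call under every alternative fit at the same thresholds. Other thresholds were applied only to the counts of calls. A miRNA past q but short of the size threshold, such as let-7e-5p between sperm and MII oocytes, could therefore count as unchanged here. The count of miRNAs called between PN embryos and MII oocytes went from 0 to 1 with q under 0.05 alone, and that of names from 0 to 2 with q under 0.05 alone and to 2 with DESeq2; with each library left out it ranged from 0 to 1 (1 without MII oocyte library 3 and 1 without PN embryo library 2). Leaving out libraries gave 11 to 12 called miRNAs for sperm against MII oocytes and 10 to 13 for sperm against PN embryos. The log2 ratio of family shares between sperm and MII oocytes went from 2.22 to 1.30 without miR-205; between sperm and PN embryos it went from 1.99 to 1.12 without miR-205 and to 2.20 with identical rows counted once.

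Signs turned only between PN embryos and MII oocytes, for values near 0. For let-7f-5p the log2 fold change went from -0.004 to 0.012 with DESeq2 size factors, 0.061 with library totals, 0.015 with DESeq2, 0.029 without a filter, 0.017 with the replicate block and 0.011 with identical rows counted once, and from -0.23 to 0.16 with each library left out. Leaving out libraries also gave ranges of -0.33 to 0.17 for let-7b-3p, -0.064 to 0.23 for let-7e-5p, -0.052 to 0.15 for let-7g-5p, -0.087 to 0.013 for let-7i-5p and -0.31 to 0.11 for miR-98-5p. The cause was not tested.

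The replicate numbers did not pair the libraries: the correlations of same-numbered libraries' deviations lay between -0.194 and 0.00424. With the replicate block 0, 11 and 13 family miRNAs were called in the 3 comparisons, the same counts as without it, and 0, 13 and 12 names, against 0, 13 and 13. The low totals of MII oocytes limit values under about 16 CPM, where a listed 0 can stand for up to 5 counts; counting intervals were not used.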
